A study of Mus musculus with 6 samples.

Results

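The BCL2 family decides whether a cell keeps its mitochondria intact or starts intrinsic apoptosis, and 10 of its genes were followed here through erythroid differentiation of MEL cells. They are Bcl2, Bcl2l1, Mcl1, Bax, Bak1, Bcl2l11, Bbc3, Pmaip1, Bad and Bid. They were chosen by name as the survival, effector and BH3-only genes of the family, with earlier results of these data known, and the rule itself uses no measured value. RefSeq transcripts were matched to gene symbols, and the transcript with the highest mean count over the libraries stood for each gene. The 10 genes are part of 23896 genes with a symbol, and all 10 passed the filter on low counts, which left 12381 genes to test.

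MEL cells are a murine erythroleukemia line held at an early erythroid stage. Cultures growing in suspension received 2% DMSO, an inducer of terminal erythroid differentiation, and mRNA was sequenced before its addition (day 0) and on day 2 and day 4. Each day had 2 biological replicates, so that all values come from 6 libraries of 1 cell line. No parallel culture without DMSO at day 2 or day 4 was analysed here, so the inducer and time in culture cannot be told apart. Day 0 is the state before DMSO.

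The survival proteins BCL2, BCL-xL (from Bcl2l1) and MCL1 hold the effectors BAX and BAK in check, and once released the effectors open the outer mitochondrial membrane and let cytochrome c out. BH3-only proteins such as BIM (Bcl2l11), PUMA (Bbc3), NOXA (Pmaip1), BAD and BID answer stress and withdrawal of growth factors, by occupying the groove of the survival proteins or by engaging the effectors directly. In the erythroid lineage, BCL-xL is known as the survival protein that late erythroblasts depend on, and its gene responds to erythropoietin and GATA1.

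What joins these proteins is the BH3 segment, an amphipathic helix with an invariant leucine and an aspartate. The stretch that encodes this core was read from GENCODE M21 transcripts matched to the counted RefSeq transcripts for 9 of the genes and is shown so that the members can be compared. Each line runs 5′ to 3′ from the leucine codon over 9 codons, and capitals mark the leucine and the aspartate codons.
Bcl2: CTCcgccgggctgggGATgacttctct
Bcl2l1: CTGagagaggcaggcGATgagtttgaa
Mcl1: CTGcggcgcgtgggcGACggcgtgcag
Bax: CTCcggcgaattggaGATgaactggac
Bak1: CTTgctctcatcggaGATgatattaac
Bcl2l11: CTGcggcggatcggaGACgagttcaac
Bbc3: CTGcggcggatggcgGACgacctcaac
Bad: CTCcgaaggatgagcGATgagtttgag
Bid: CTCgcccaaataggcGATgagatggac
The search took a leucine codon followed, after 3 codons of any kind, by glycine, alanine or serine, then aspartate, then aspartate, glutamate, glycine or lysine, and it matched 1 time in each reading frame. The core started at residue 94 of 236 in the Bcl2 product, at 90 of 233 in Bcl2l1 and at 194 of 331 in Mcl1. It started at residue 63 of 192 in Bax and 76 of 209 in Bak1. In the BH3-only genes it began at residue 150 of 196 in Bcl2l11, 141 of 193 in Bbc3, 151 of 204 in Bad and 90 of 195 in Bid. The spacing of the marked codons and the residues allowed just before and after the aspartate were set by the search. The remaining letters show how the members differ. After the aspartate, where the search allowed only aspartate, glutamate, glycine or lysine, Mcl1 alone has a glycine codon. The other 8 have an acidic one there.

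The libraries held between 35294930 and 53899476 counts on transcripts, and the members drew between 3544 counts in all 6 libraries together (Bcl2l1) and 95450 (Mcl1). Values are given as CPM, the counts relative to a library size scaled by TMM, the trimmed mean of M values. They were multiplied by the same constant in each library. Of 9 erythroid markers 8 rose by day 4. Klf1 fell, from 192 and 309 CPM at day 0 to 173 and 171 CPM at day 4. The summed level of the 9 went from 1095 to 1156 CPM at day 0 to 4280 to 5085 CPM at day 2. At day 4 it was 17654 to 19802 CPM. Most of that was Hba-a1 and Hbb-bs, at means of 10628 and 5036 CPM. The 8 myeloid markers summed to at most 2.16 CPM in every library, and Elane, Itgam, S100a8 and S100a9 had at most 3 counts in each. The B lymphoid markers summed to at most 1.57 CPM and the T lymphoid markers to at most 1.36 CPM. The 6 megakaryocyte markers summed to 269 and 272 CPM at day 0 and to 214 and 237 CPM at day 2. At day 4 they summed to 548 and 622 CPM. Most of the sum was Itga2b, at 209 and 227 CPM at day 0 and 531 and 606 CPM at day 4. Of the 5 tested, 3 were higher and 2 lower at day 4 than at day 0. Pf4 fell from 57.4 and 42.7 CPM to 10.2 and 8.93 CPM, and Ppbp fell on 33 counts in all. The part of these markers in the results below was not tested. In RNA from whole cultures, fewer cells that carry a transcript and less of it per cell cannot be told apart.

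Of the 10 genes, 6 passed the edgeR quasi-likelihood test at a Benjamini-Hochberg adjusted p under 0.05 between day 0 and day 2. Bcl2, Bcl2l11 and Bbc3 rose, and Bcl2l1, Bax and Bak1 fell. Over all genes tested 62.5% were called in this comparison, 31.0% as higher and 31.5% as lower, so that the share of members called was close to that of genes at large. From day 2 to day 4, 4 members rose (Bcl2l1, Bcl2l11, Bbc3 and Bak1) and 0 fell, against 30.3% of all genes called, 14.0% higher and 16.2% lower. In edgeR 0 members fell at an unadjusted p under 0.05 too, and in DESeq2 0 fell. The count of 4 went to 2 without any single library of day 2 or day 4, and to 5 without either day 0 library, where Bid was added. From day 0 to day 4, 7 members were called, with Bcl2, Mcl1, Bcl2l11, Bbc3 and Bid higher and Bax and Bak1 lower. Here the background was 71.8% of genes called, 35.5% higher and 36.4% lower.

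The median log2 fold change over the 10 members was 0.13 from day 0 to day 2, 0.26 from day 2 to day 4 and 0.30 from day 0 to day 4, and over all genes tested it was 0.01, 0.00 and -0.02. The sizes of the changes, without their sign, had medians of 0.76, 0.26 and 0.52 over the members and 0.53, 0.28 and 0.71 over all genes. Scaling by total counts alone in place of TMM put the median of all genes at 0.21, -0.09 and 0.10 on the log2 scale in the 3 comparisons. With it, the share of called genes that were higher went from 49.6% to 63.4% for day 2 against day 0, from 46.4% to 32.7% for day 4 against day 2 and from 49.4% to 55.1% for day 4 against day 0. Directions given below for called members were the same under both scalings.

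**Figure D1:**
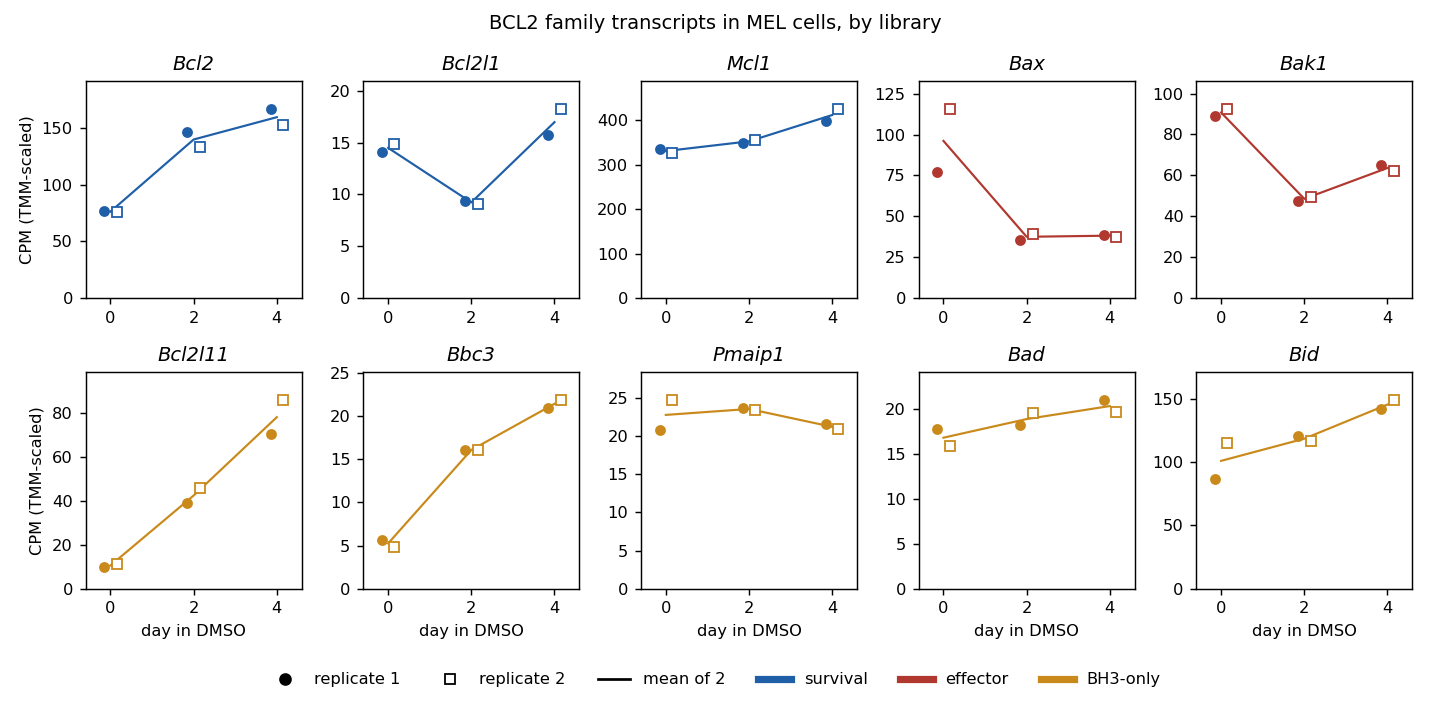
CPM of each of the 10 genes (vertical axis, starting at 0, with its own scale in each panel) against day in DMSO (horizontal axis). Circles are replicate 1, squares replicate 2, and the line joins the means of the 2 libraries. The libraries of Bax at day 0 lie furthest apart of the panels, at 76.9 and 115 CPM, while those of Bbc3 at day 2 coincide at 16.1 CPM.

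Among the survival genes, Bcl2 rose early and stayed high. Bcl2 (NM_009741, GRCm38 chr1:106538176-106714290) encodes the founding member of the family. It was at 76.7 and 75.6 CPM at day 0, 146 and 133 CPM at day 2 and 166 and 152 CPM at day 4. Both libraries of each later day lay above both of the day before, and most of the rise fell in the first step. It amounted to a log2 fold change of 0.88 ± 0.11 (SE, n = 2 per day) from day 0 to day 2 (edgeR adjusted p = 4.16e-05) and 0.19 ± 0.11 from day 2 to day 4 (adjusted p = 0.194). From day 0 to day 4 it was 1.06 ± 0.11 (edgeR adjusted p = 5.14e-06), a 2.09-fold difference. The shorter Bcl2 transcript NM_177410, of 2841 bases against 7191, changed by 0.60 and 0.78 on the log2 scale by day 2 and day 4 (edgeR adjusted p = 0.00133 and 0.000149).

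Bcl2l1 moved down and then up. The transcript NM_001289716 (chr2:152758732-152833803) was at 14.1 and 14.9 CPM at day 0, 9.34 and 9.12 CPM at day 2 and 15.7 and 18.2 CPM at day 4. Day 2 lay below both other days without overlap. The log2 fold change was -0.65 ± 0.13 for the first step (edgeR adjusted p = 0.00138) and 0.88 ± 0.13 for the second (adjusted p = 0.00104). Day 4 against day 0 gave 0.23 ± 0.13 (edgeR adjusted p = 0.134), and this did not pass the threshold although the libraries of day 4 lay above those of day 0. All 4 transcripts of Bcl2l1 in the files fell and rose again, by -0.55 to -0.65 and by 0.80 to 0.88. They share most of their exons, so they are not separate evidence.

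Mcl1 encodes a survival protein with a short half-life. It was at 336 and 325 CPM at day 0, 349 and 355 CPM at day 2 and 399 and 424 CPM at day 4 (NM_008562, chr3:95656944-95663179). The days did not overlap, but the steps were small, with a log2 fold change of 0.09 ± 0.11 (edgeR adjusted p = 0.486) and 0.22 ± 0.11 (adjusted p = 0.147) for the 2 steps. It came to 0.32 ± 0.11 over both (edgeR adjusted p = 0.0233), and this call was lost when any library of day 2 or day 4 was left out (adjusted p = 0.0553 to 0.15) or when only the 2 days compared were fitted (adjusted p = 0.0584).

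Both effectors fell in the first step. BAX is a cytosolic protein that inserts into the mitochondrial membrane on activation. Bax (NM_007527, chr7:45461695-45466903) was at 76.9 and 115 CPM at day 0, 35.8 and 39.2 CPM at day 2 and 38.8 and 37.5 CPM at day 4. The day 0 replicates were 1.5-fold apart, the widest ratio within a day among the members, and yet both exceeded every later library. In the fit, the log2 fold change was -1.36 ± 0.17 by day 2 (edgeR adjusted p = 4.09e-05) and -1.33 ± 0.17 by day 4 (adjusted p = 2.59e-05). Between day 2 and day 4 the libraries overlapped, with 0.03 ± 0.16 (edgeR adjusted p = 0.921).

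BAK sits in the outer mitochondrial membrane from the start. Bak1 (NM_007523, chr17:27019812-27028627) was at 89.2 and 92.3 CPM at day 0, 47.7 and 49.4 CPM at day 2 and 64.9 and 62.3 CPM at day 4. It went to its lowest level at day 2 and recovered in part. Its log2 fold change was -0.90 ± 0.10 for the first step (edgeR adjusted p = 1.98e-05), 0.39 ± 0.10 for the second (adjusted p = 0.0132) and -0.51 ± 0.10 over both (adjusted p = 0.000684). The second step lost its call when any library of day 2 or day 4 was left out.

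The 2 effectors thus differed in the second step as values, with Bak1 called and Bax not. The difference between the 2 genes was not tested.

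Among the 5 BH3-only genes followed here, the largest rises were in Bcl2l11 and Bbc3. BIM, the product of Bcl2l11, binds every survival protein of the family. Bcl2l11 (NM_207680, chr2:128126038-128162547) was at 10.1 and 11.1 CPM at day 0, 39.2 and 45.7 CPM at day 2 and 70.3 and 86.0 CPM at day 4. Each day lay above the one before with no overlap. The log2 fold change was 2.00 ± 0.14 for the first step (edgeR adjusted p = 1e-06), 0.88 ± 0.13 for the second (adjusted p = 0.00101) and 2.88 ± 0.14 over both (adjusted p = 4.48e-08). Day 4 was 7.38-fold day 0 by the mean CPM, and 283 of the 12381 genes tested had a larger log2 fold change. The other 4 Bcl2l11 transcripts, which overlap it, changed by 2.4 to 2.89 over both steps.

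PUMA, the product of Bbc3, is a transcriptional target of p53 and of FOXO factors. Bbc3 (NM_133234, chr7:16308398-16318334) was at 5.64 and 4.86 CPM at day 0, 16.07 and 16.08 CPM at day 2 and 21.0 and 21.9 CPM at day 4. Again each day was above the last with no overlap. The log2 fold change was 1.62 ± 0.14 (edgeR adjusted p = 3.14e-06), 0.41 ± 0.13 (adjusted p = 0.0297) and 2.03 ± 0.14 (adjusted p = 2.88e-07) for the first step, the second step and both. The call of the second step was lost with total counts alone (log2 fold change 0.33, adjusted p = 0.0755) and when any library of day 2 or day 4 was left out.

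BID links death receptors to mitochondria once caspase-8 has cleaved it. Bid (NM_007544, chr6:120893119-120917062) was at 86.8 and 115 CPM at day 0, 120 and 117 CPM at day 2 and 142 and 149 CPM at day 4. The day 0 libraries were 1.33-fold apart, with the higher just under those of day 2. Over both steps the log2 fold change was 0.53 ± 0.13 (edgeR adjusted p = 0.00401). The single steps, at 0.23 ± 0.13 (edgeR adjusted p = 0.149) and 0.30 ± 0.13 (adjusted p = 0.112), did not pass. The first step was called without day 0 replicate 2 (a log2 fold change of 0.44 with an edgeR adjusted p of 0.002), and the second without either day 0 library (adjusted p = 0.0114 and 0.0108).

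Of the survival proteins followed here, NOXA binds mainly MCL1, and BAD binds BCL2 and BCL-xL. Pmaip1 (NM_021451, chr18:66458604-66465558) was at 20.8 and 24.7 CPM at day 0, 23.7 and 23.4 CPM at day 2 and 21.5 and 20.9 CPM at day 4. Its day 0 libraries spanned those of both later days. The log2 fold change over both steps was -0.10 ± 0.12 (edgeR adjusted p = 0.468). Bad (NM_007522, chr19:6941861-6951905) was at 17.8 and 15.9 CPM at day 0, 18.2 and 19.6 CPM at day 2 and 21.1 and 19.7 CPM at day 4. The days of Bad did not overlap, and the log2 fold change over both steps was 0.27 ± 0.12 (edgeR adjusted p = 0.0649), just outside the threshold. Without day 0 replicate 1 it was called (log2 fold change 0.35, edgeR adjusted p = 0.0245). A second Bad transcript, NM_001285453, gave 0.31 ± 0.13 (edgeR adjusted p = 0.0462). It had nearly the same counts, 4712 in all against 4891, so it is not separate evidence.

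**Figure D2:**
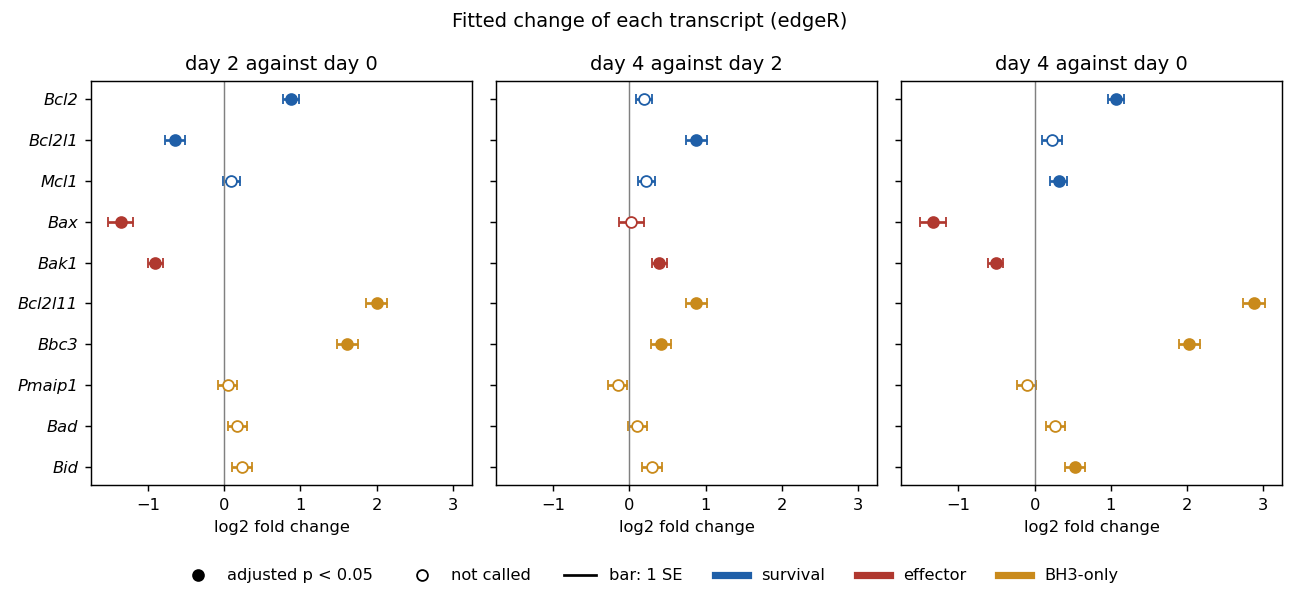
Fitted log2 fold change (horizontal axis) of each gene in the 3 comparisons, with 1 SE as the bar, filled where the adjusted p was under 0.05. Bcl2l11 and Bbc3 lie furthest to the right for day 4 against day 0, at 2.88 and 2.03, and Bax furthest to the left, at -1.33.

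The annotation places other exons over 4 of the genes. In GENCODE M21, 25.7% of the exon bases of Bak1 lie opposite Ggnbp1, 35.6% of those of Bad opposite Gpr137 and 7.76% of those of Bcl2 opposite the antisense gene D630008O14Rik. For Bax, 22.1% of the exon bases are shared with Gm45808 on the same strand. The use of strand in counting is not given in the sources used here, so reads of a gene and of its opposite partner cannot be told apart. Ggnbp1 had at most 1.65 CPM in any library, far under Bak1, while Gpr137 was at 12.4 and 10.6 CPM at day 0 and at 21.2 and 21.5 CPM at day 4, close to Bad. The other 6 genes share no exon bases with another gene.

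A further contrast, chosen after the data had been seen, set the second step against the first within the same fit. It was called for 6 members, against 30.0% of all genes. The second step was smaller than the first for Bcl2 (difference -0.69 ± 0.18 on the log2 scale, edgeR adjusted p = 0.0168), Bcl2l11 (-1.12 ± 0.23, adjusted p = 0.00485) and Bbc3 (-1.20 ± 0.22, adjusted p = 0.00291). It was above the first for Bcl2l1 (1.53 ± 0.24, edgeR adjusted p = 0.00115), Bax (1.38 ± 0.29, adjusted p = 0.00594) and Bak1 (1.29 ± 0.18, adjusted p = 0.000596). For Mcl1, Pmaip1, Bad and Bid the difference lay between -0.20 and 0.13 and did not pass. The count of 6 went to 3 without day 2 replicate 1, where Bcl2, Bax and Bbc3 lost the call, and to 2 without day 2 replicate 2, where Bcl2l11 lost it as well. It was 5 without day 4 replicate 2, where Bcl2 lost the call. Day 2 enters both steps with opposite signs.

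Levels of different genes were compared only per length, as TPM, the counts of a library divided by transcript length and scaled to a fixed sum, over 1 transcript per gene with the GENCODE length. At day 0 the order of mean TPM from the highest was Bax, Mcl1, Bid, Bak1, Bad, Bcl2, Pmaip1, Bcl2l1, Bbc3 and Bcl2l11. Neither Bax and Mcl1 nor Bad and Bcl2 were separated in both libraries. At day 4 the order was Mcl1, Bid, Bax, Bak1, Bcl2, Bcl2l11, Bad, Bbc3, Pmaip1 and Bcl2l1, and Bcl2l11 and Bad overlapped. Between these days Bcl2l11 went from the lowest place to the sixth, and Bcl2l1 became the lowest. Bcl2l11 was assigned 5036 bases here, and its other transcripts match as few as 2301, so its places depend on that choice. The order was not redone with another length.

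Within the survival class, Mcl1 made up 85.9% and 85.4% of the summed TPM at day 0 and 80.0% and 81.4% at day 4. Bcl2 went from 9.33% and 9.43% to 15.8% and 13.9%. The share of Bcl2l1 was 4.79% and 5.21% at day 0, 2.88% and 2.82% at day 2 and 4.20% and 4.65% at day 4, so that day 2 was again the lowest. Bcl2 exceeded Bcl2l1 in every library.

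Within the effectors, Bax held 73.9% ± 5.06 (SD, n = 2) of the summed TPM at day 0 and 62.3% ± 0.11 at day 4, with Bak1 as the remainder. Among the BH3-only genes, Bid was the largest at each day, at a mean of 64.6% at day 0 and 57.5% at day 4. Bcl2l11 went from a mean of 3.0% to 9.1% and 13.4% over the 3 days, and Bbc3 from 4.1% to 9.5% and 10.2%. Over the same days Pmaip1 went from 11.8% to 6.7% and Bad from 16.5% to 12.2%. No test was run on shares, since an exact permutation test of 2 libraries against 2 cannot go below p = 0.33.

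These shares depend on which length is assigned. The counted Bcl2l11 transcripts with nearly the same counts match lengths from 2490 to 5036 bases. Its shortest matched length, 2301 bases, belongs to transcripts with 2059 and 1838 counts in all, against 11276 for the main one. The 2 Bcl2 transcripts match 7191 and 2841 bases and had 32417 and 10251 counts. With the shortest matched length of each gene, the mean share of Bcl2l11 among BH3-only genes was 5.8%, 16.9% and 24.1% over the 3 days, and that of Bcl2 among survival genes 20.7%, 31.5% and 30.6%. Here the counts of the transcript with the highest mean were divided by the length of one with fewer counts. These shares therefore show only how far the choice of length can move the level. The order in time was the same, and the level was not.

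The ratio of classes within a library does not depend on library scaling. Summed effector TPM over summed survival TPM was 1.10 and 1.54 at day 0, 0.49 and 0.52 at day 2 and 0.49 and 0.46 at day 4. Summed BH3-only TPM over survival TPM was 0.57 and 0.70 at day 0, 0.74 and 0.74 at day 2 and 0.77 and 0.78 at day 4. Thus day 0 stood above the later days in the first ratio and under them in the second, without overlap. The sums cover only the members followed here and rest on the assigned lengths, and Bid made up most of the BH3-only sum. As counts, Bcl2l11 over Bcl2 was 0.131 and 0.147 at day 0 and 0.423 and 0.565 at day 4, although Bcl2 itself had risen. Such count ratios are read across days only, since the transcripts differ in length. Bcl2 over Bcl2l1 was 5.45 and 5.07 at day 0, 15.6 and 14.6 at day 2 and 10.6 and 8.37 at day 4.

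**Figure D3:**
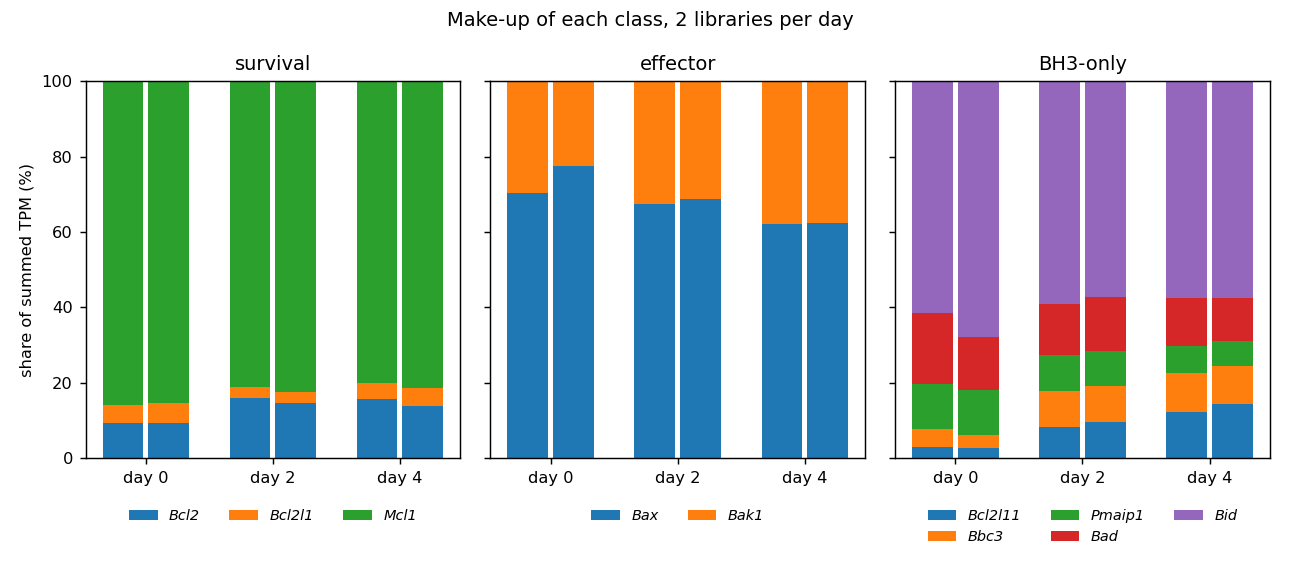
Share of summed TPM (vertical axis, percent) of each gene within the survival, effector and BH3-only classes, with 1 bar per library and 2 libraries per day. In the right panel the lowest segments, Bcl2l11 and Bbc3, grow from day 0 to day 4 while Bid shrinks from a mean of 64.6% to 57.5%.

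Promoter entries of the members were read from RefSeq (GRCm38.p6). A promoter entry spans 250 bases before a start site and 50 after it. Pmaip1 was left out of the search, and the other 9 members have 15 entries. The motifs searched, on both strands, were the FOXO motif GTAAACA, the STAT motif TTCNNNGAA and the GATA motif in 4 spellings that begin with A or T, continue with GATA and end with A or G. The FOXO motif was in 1 entry of Bcl2l11 and 1 of Bbc3 and in no other entry of the 9 members, against 3.65% of 32851 promoters. The other entries of both genes had no match, among them the Bbc3 entry 33 bases from the counted transcript's start. The parts before the start site are shown only for the entries that hold the motif, which is in capitals. That of Bcl2l11 is chr2:128125788-128126037 on the plus strand, with the motif 227 bases before the start.
Bcl2l11: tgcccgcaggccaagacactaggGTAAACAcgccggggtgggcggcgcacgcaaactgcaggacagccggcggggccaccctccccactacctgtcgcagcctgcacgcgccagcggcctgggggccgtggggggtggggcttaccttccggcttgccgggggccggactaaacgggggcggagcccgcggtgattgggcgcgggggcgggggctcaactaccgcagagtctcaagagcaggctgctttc
That of Bbc3 is chr7:16310011-16310260 on the plus strand and belongs to a start site 645 bases downstream of the counted transcript's start, with the motif 167 bases before it and read here on the opposite strand.
Bbc3: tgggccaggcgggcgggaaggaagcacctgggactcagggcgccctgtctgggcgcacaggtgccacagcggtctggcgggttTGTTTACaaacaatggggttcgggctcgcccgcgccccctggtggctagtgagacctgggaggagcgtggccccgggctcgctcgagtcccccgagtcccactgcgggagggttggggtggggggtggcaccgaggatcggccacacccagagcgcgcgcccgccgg
The GATA motif was in 1 entry each of Bcl2l1 and Bid, against 29.8% of all promoters. The start site of that Bcl2l1 entry lies 2177 bases from the counted transcript's start. The Bcl2l1 entry 51 bases from the counted start had no GATA motif. The STAT motif was in 0 of the 15 entries, against 8.30% of all promoters. A match describes letters in this window and no binding was measured.

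The genes whose course over the 6 libraries lay closest to that of a member were sought among 10454 genes, those averaging 1 or more in log2 CPM, by the Euclidean distance between profiles of log2(CPM + 0.1) after removal of each gene's mean. For Bcl2l11 they were Ttll3 (distance 0.134), Sptb (0.164), which encodes erythroid beta-spectrin, and Pik3r3 (0.234). For Bcl2l1 they were Midn (0.146), Gata2 (0.203) and Treml2 (0.207), each lowest at day 2. Sptb, for example, was at 208 and 250 CPM at day 0, 904 and 1062 CPM at day 2 and 1608 and 1831 CPM at day 4. For Mcl1 the nearest were Trim25 (0.0639), Meaf6 (0.0728) and Fnbp1 (0.0736).

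Of 23 other genes of the wider family or its binding partners, 21 were tested. Hrk was listed at 0 counts and Bcl2l10 had 7 counts in all. By day 4, 6 had risen, 8 had fallen and 7 did not pass, with a median log2 fold change of 0.01 against -0.02 over all genes. From day 0 to day 2, 3 rose and 7 fell, and from day 2 to day 4, 4 rose and 3 fell. The shares called, 14 of 21 by day 4, 10 of 21 in the first step and 7 of 21 in the second, stand beside 71.8%, 62.5% and 30.3% of all genes.

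The BH3-only gene Bmf rose. It was at 1.59 and 1.29 CPM at day 0, 7.02 and 7.41 CPM at day 2 and 7.65 and 10.5 CPM at day 4, with a log2 fold change of 2.66 ± 0.21 over both steps (edgeR adjusted p = 8.83e-07). Bik, another BH3-only gene, rose and partly returned. It was at 2.62 and 2.48 CPM, then 9.60 and 10.5 CPM, then 5.60 and 5.99 CPM, with log2 fold changes of 1.98 ± 0.16 (edgeR adjusted p = 2.37e-06) and -0.80 ± 0.15 (adjusted p = 0.00304) for the 2 steps. The survival gene Bcl2l2, which encodes BCL-w, rose by a log2 fold change of 1.08 ± 0.11 (edgeR adjusted p = 7.29e-06), from 21.7 and 23.1 CPM to 48.5 and 46.1 CPM.

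The A1 survival genes went to nearly no counts. Bcl2a1b had 148 and 180 counts at day 0, 6 and 2 at day 2 and 0 in both day 4 libraries, so it was at least 98.4-fold lower at day 4 than at day 0, with 3 counts over both libraries as the floor. Bcl2a1d had 132 and 158 counts at day 0 and 0 in both at day 4, at least 87.0-fold lower. Bcl2a1a had 121 and 140 counts at day 0 and 1 count in all at day 4. These copies share between 72.4% and 78.1% of their 31-base words with another copy, so reads may be split among them and the 3 are not separate evidence. At day 0 each of them had no more than 3.63 CPM.

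Bnip3, a mitochondrial BH3-like protein gene induced by low oxygen, was the member of this list whose replicates lay furthest apart. It was at 39.6 and 157 CPM at day 0, 11.2 and 10.6 CPM at day 2 and 9.67 and 9.83 CPM at day 4 (log2 fold change over both steps -3.33 ± 0.47, edgeR adjusted p = 7.37e-05). Replicate 2 was the higher day 0 library for Bnip3, Bax and Bid alike. Bnip3l, which encodes NIX, needed for removal of mitochondria in reticulocytes, changed by 0.20 ± 0.11 (edgeR adjusted p = 0.114), and it is named here after its value was seen. Without day 0 replicate 2 it was called (edgeR adjusted p = 0.019). Of the rest, Bcl2l13 (0.43), Becn1 (0.48) and Bag3 (0.61) rose by these log2 fold changes. Bclaf1 (-0.87), Bag1 (-0.53), Bcl2l14 (-1.81) and Bok (-2.41) fell, the last on 37 counts in all, and it was not called by DESeq2 (adjusted p = 0.105) or without day 4 replicate 2 (edgeR adjusted p = 0.139).

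**Figure D4:**
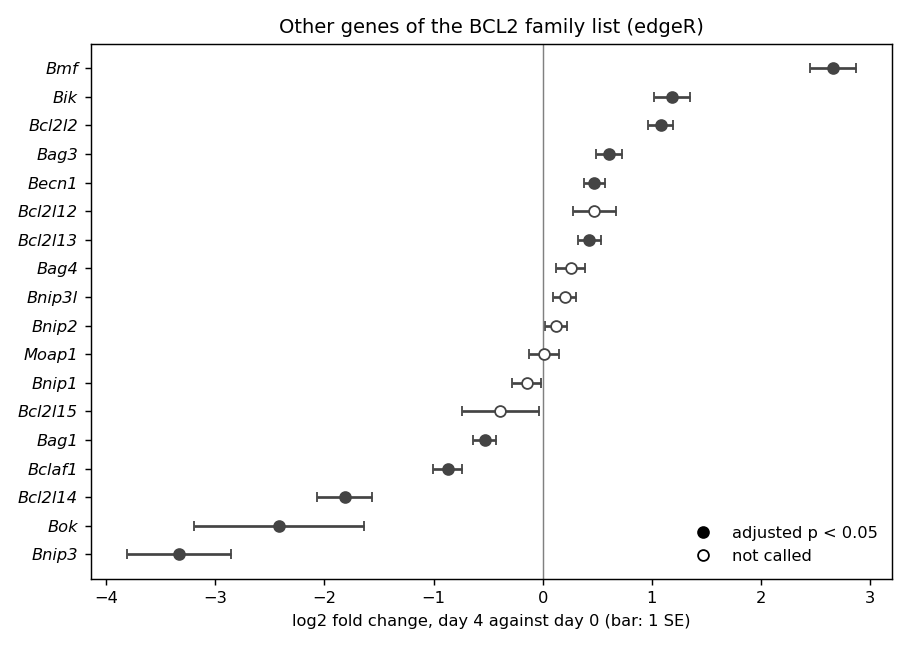
Log2 fold change for day 4 against day 0 (horizontal axis, bar 1 SE) of 18 other genes of the wider BCL2 family list, filled where the edgeR adjusted p was under 0.05. The 3 A1 genes with at most 1 count at day 4 are left out. Bmf lies at 2.66 and Bnip3 at -3.33.

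Downstream of mitochondria, 21 genes of the apoptosome, the caspases and their inhibitors were all tested. By day 4, 4 had risen and 11 had fallen, with a median log2 fold change of -0.33 against -0.02 over all genes. Over all genes 71.8% were called in this comparison, 35.5% higher and 36.4% lower, so the 15 of 21 called here were close to the background. Cycs, the gene of cytochrome c, fell by 1.77 ± 0.16 on the log2 scale (edgeR adjusted p = 2.11e-06), and Endog by 1.75 ± 0.18 (adjusted p = 4.96e-06). The largest rises were Birc2 at 0.89, Casp6 at 0.67 and Casp9 at 0.55, the last lost without day 4 replicate 2 (edgeR adjusted p = 0.0923).

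In the death receptor arm 7 of 10 genes were tested, of which 4 rose and 2 fell by day 4, with a median of 0.32, beside 71.8% of all genes called. Fas and Fasl were listed at 0 counts, and Tnfsf10 had 41 counts in all. Ripk1 (0.88), Tnfrsf10b (0.51) and Cflar (0.42), whose product blocks caspase-8, rose. Tnfrsf1a (-0.77) and Fadd (-0.69) fell. The call of Tnfrsf10b was lost without day 0 replicate 2 or day 4 replicate 1 (edgeR adjusted p = 0.0723 and 0.0731), and that of Cflar without day 4 replicate 1 (adjusted p = 0.0567).

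The 15 regulators listed for these genes were all called by day 4, 8 higher and 7 lower, with a median of 0.37, beside 71.8% of all genes called, 35.5% higher and 36.4% lower. Pim2 rose from 7.65 and 6.77 CPM to 32.8 and 37.9 CPM and Pim1 from 75.3 and 83.9 CPM to 228 and 262 CPM, both kinases that phosphorylate BAD (log2 fold change 2.30 ± 0.14 and 1.62 ± 0.12, edgeR adjusted p = 1.6e-07 and 5.97e-07). Epor, the erythropoietin receptor gene, rose from 163 and 165 CPM to 368 and 460 CPM. Ddit3 and Myc fell by 1.60 and 1.12 on the log2 scale. Kit had 23 and 24 counts at day 0 and 0 at day 4, at least 14.1-fold lower.

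Foxo3 and Trp53, genes of factors that act on Bcl2l11 and Bbc3, were picked from that list after their values were seen. Others on it went either way by day 4, among them Foxo1 (log2 fold change 1.31) and E2f1 (-0.57), also named after their values were seen. Ddit3, given above, fell. Foxo3 was at 47.1 and 52.7 CPM at day 0, 67.5 and 77.1 CPM at day 2 and 94.7 and 102 CPM at day 4, with both steps called (log2 fold change 0.54 and 0.44, edgeR adjusted p = 0.00172 and 0.0132). Trp53 was at 67.4 and 56.8 CPM, then 63.4 and 65.3 CPM, then 105 and 107 CPM, and was called in the second step (log2 fold change 0.72 ± 0.11, edgeR adjusted p = 0.00112). Its day 2 libraries lay between those of day 0. The activity of none of these factors was measured, and their part in the rises of Bcl2l11 and Bbc3 was not tested. The second step of Foxo3 was lost without day 2 replicate 1 (adjusted p = 0.186) or day 4 replicate 2 (edgeR adjusted p = 0.121).

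Of 5 genes that act on MCL1 protein, 4 were tested and 3 rose by day 4, with a median of 0.55, beside 35.5% of all genes called as higher. They were Usp9x, which removes ubiquitin from MCL1 (log2 fold change 0.82), and Fbxw7 (0.58) and Btrc (0.52), which recognise it for degradation. Trim17 had 27 counts in all and was not tested. The lists were drawn up with earlier results of these data known, so their counts are a description.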

How the data were processed

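mRNA-seq libraries were made from MEL cells at days 0, 2 and 4 of DMSO treatment, with 2 biological replicates per day. Per the labels the libraries were strand-specific and poly(A)-selected. The authors trimmed adapters with cutadapt, used TopHat to align reads to mm10 and deposited unnormalized counts for each RefSeq transcript, and HTSeq and DESeq2 are also named in the submitters' processing notes. Strand use and annotation release in counting are not given in the sources used here. Replicates were not pooled. Of the deposited values, 5 entries per library name no transcript and were left out. Among these, the entry of reads on no feature was 50.5% to 58.4% of the sum of itself and all transcript counts. Transcripts of the same gene can count the same read, so this is not a share of reads.

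Symbols came from RefSeq for 32199 of 32654 transcripts and from GENCODE for 187. The transcript with the highest mean count stood for a gene. Counts were fitted with edgeR 4.0.16 (R 4.3.3) using TMM factors, the filterByExpr filter, which left 18351 transcripts, and 1 quasi-likelihood model of all libraries with a term for each day. P-values were adjusted by Benjamini-Hochberg over all transcripts tested, and an adjusted p under 0.05 was a call. SE is the size of the log2 fold change over the square root of F. TPM used GENCODE M21 transcript lengths. The floor was 3 counts and covers counting error only. The fit was tested on simulated counts.

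All 10 genes are named with values. Of the other family list every gene called for day 4 against day 0 is named, and of each other list the 3 called genes that rose most and the 3 that fell most. Genes named outside this rule are marked in the text. Some genes that the rule would name are not reported here. The members and lists were chosen with earlier results of these data known. Alternatives were relative log expression factors, total counts, scaling without globin transcripts, no filter on low counts, DESeq2 1.42.0, a fit of 2 days alone, blocking on replicate number, 1 transcript per gene, the second transcript of a gene, a minimum fold change and leaving out each library. Added after seeing the data were the contrast of the 2 steps and the shortest matched length. Figures were drawn with matplotlib 3.10.9.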

Additional observations from a re-analysis of the deposited data

How the results depend on the processing

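Over the settings that keep all 6 libraries, 312 of 326 values of the members stayed in direction and on their side of the threshold, 3 lost the call, 7 gained it and 4 turned in sign. With 1 library left out, these numbers were 209, 20, 4 and 7 of 240. Requiring a log2 fold change of 1 or more left 3, 0 and 4 members called for day 2 against day 0, day 4 against day 2 and day 4 against day 0, and 5 for the contrast of steps. Leaving out 1 library at a time gave 6 to 7, 2 to 5 and 6 to 8 members in the 3 comparisons, and 2 to 6 for the contrast of steps, where the second transcript of each gene gave 5. The low value of 2 for day 4 against day 2 came without any one library of day 2 or day 4, and Bbc3 and Bak1 were the members lost.

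With total counts alone, 9, 3 and 9 members were called. Gained were Mcl1 (log2 fold change 0.29), Bad (0.37) and Bid (0.43) at day 2 and Bcl2l1 (0.34) and Bad (0.39) at day 4, each against day 0. Signs turned for Bax from day 2 to day 4 (-0.057), for Pmaip1 from day 0 to day 4 (0.012), and in the contrast of steps for Mcl1 (-0.15) and Bid (-0.22). None of these 4 was called under any setting. With 1 library left out, values that changed sign ranged from -0.072 to 0.17 for Pmaip1 at day 2 and -0.23 to 0.015 at day 4, from -0.042 to 0.092 for Bax from day 2 to day 4, and from -0.075 to 0.18 for Trp53 at day 2. In the contrast of steps they ranged from -0.17 to 0.039 for Bad and -0.15 to 0.25 for Bid. Bid rose by day 2 (0.44) without day 0 replicate 2, the library in which it was higher. The cause of these changes was not tested.

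The replicate numbers pair nothing stated in the labels. Deviations of same-numbered libraries correlated at 0.032, 0.045 and 0.079 over 18351 transcripts for the 3 pairs of days. With the replicate block, 6, 4, 7 and 6 members were called in the 3 comparisons and the contrast of steps, as without it. The replicates are 2 per day, so the spread of a transcript rests on a variance shared over all days and drawn toward that of other transcripts. Counts under 100 in all, as for Bok and Kit, limit what can be said of low genes.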
